A study of Mus musculus with 12 samples.

Results

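Csf1 and the CXC and CX3C chemokine genes Cxcl1, Cxcl2, Cxcl5, Cxcl12, Cxcl14, Cxcl16 and Cx3cl1 were followed across bulk RNA-seq of cultured mouse lung mesenchymal cells in which Klf4 was silenced. The genes were taken by symbol from the deposited expression tables, in which they are 8 of 52636 gene rows. The libraries number 12, with 3 in each of 4 groups, and cover 2 cell types, airway smooth muscle cells (SMCs) and PDGFR-β+ cells of the lung, that received scrambled RNA (Scr) or small interfering RNA against Klf4 (siKlf4). KLF4 is a zinc-finger transcription factor, and the study asked how its loss alters targets in each cell type. Both kinds of cell are labelled C57BL/6, with the genotype given as WT for Scr and Klf4 KD for siKlf4 libraries. The SMCs are a commercial culture from CellBiologics with no age given. Their titles and the study's text call them airway SMCs, whereas the source label is trachea, and all 6 libraries come from this product. The PDGFR-β+ cells came from lungs of mice labelled as 12 weeks old. The study's methods describe them as ZsGreen-positive (Zs+) cells sorted after tamoxifen induction of a Pdgfrb-CreERT2 reporter strain and expanded in culture, so a cell entered the sort through past activity of the Pdgfrb promoter. The labels do not give the number of mice per library, and the methods describe 3 independent experiments, so that p-values below measure the spread between these libraries.

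CXC chemokines are small secreted proteins that steer leukocytes through G protein-coupled receptors. CXCL1, CXCL2 and CXCL5 carry the ELR motif and recruit neutrophils through CXCR2, CXCL12 acts on CXCR4 and is scavenged by ACKR3, and CXCL16 and CX3CL1 are made as membrane-anchored forms that are shed by ADAM proteases. CSF1 is the growth factor that keeps monocytes and macrophages alive through the receptor CSF1R, and mesenchymal cells are a main source of it in tissues. In lung injury these ligands are part of the signals by which structural cells hold or attract myeloid cells.

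Values are transcripts per 1000000 (TPM). This unit corrects read numbers for transcript length and gives every library a total of 1000000, so levels can be compared between genes while the depth of the libraries is unknown. Klf4, the targeted gene, lay between 89.6 and 96.3 TPM in Scr and 16.3 and 26.5 TPM in siKlf4 SMCs, and between 134 and 146 TPM in Scr and 12.3 and 13.8 TPM in siKlf4 PDGFR-β+ cells. All 8 fixed markers of PDGFR-β+ mesenchyme averaged 1 TPM or more in both cell types. The summed level of 8 smooth muscle markers was lower in Scr-treated SMCs (1458 to 2253 TPM) than in Scr-treated PDGFR-β+ cells (5522 to 6370 TPM), and Myocd, which encodes a defining smooth muscle coactivator, had group means of at most 0.143 TPM. Summed mesothelial markers were at 17.0 to 26.7 TPM in Scr and 7.03 to 9.99 TPM in siKlf4 SMCs, and at 14.2 to 15.9 TPM and 3.08 to 3.34 TPM in PDGFR-β+ cells, while epithelial and lymphocyte markers summed to at most 1.10 TPM and endothelial markers to at most 18.4 TPM, and the part of such cells in the results was not tested. The leukocyte marker Ptprc was at most 0.266 TPM in any library, and the macrophage marker Adgre1 at most 0.105 TPM. The macrophage markers together were higher, at 45.6 to 49.6 TPM in Scr and 25.2 to 29.8 TPM in siKlf4 SMCs. In PDGFR-β+ cells they summed to 35.7 to 37.2 TPM and 29.1 to 34.0 TPM. Cd14 averaged 41.0 TPM in Scr SMCs, and Lyz2 and Cd68 averaged 19.0 and 7.56 TPM in Scr PDGFR-β+ cells. The part of such cells was not tested. In the SMC table, 1 Scr and 1 siKlf4 library carry no replicate number, and the second principal component of the SMC libraries, with 16.5% of the variance, set them apart from the numbered ones. Results that these libraries decide are therefore given with and without them.

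Members were tested with limma on log2(TPM + 1), and a difference on this scale is called a log2 difference. A gene was tested where its mean reached 1 TPM, and was called where its Benjamini-Hochberg adjusted p over all tested genes was under 0.05. All 8 members were tested in the SMC libraries, of which 2 rose with siKlf4 (Csf1 and Cxcl2) and 0 fell (0 also at an unadjusted p under 0.05), where 15.6% of all 13709 tested genes rose and 12.9% fell. Among PDGFR-β+ libraries 6 members were tested, of which 1 rose (Cxcl1) and 1 fell (Csf1), where 25.3% of 13694 tested genes rose and 15.3% fell. Cxcl2 and Cxcl5 fell short of the expression minimum there. Cxcl2 in SMCs and Cxcl1 in PDGFR-β+ cells reached that minimum only through their siKlf4 libraries. The counts of members that rose or lay wholly higher therefore carry no weight against the shares of all tested genes. Groups that did not overlap were common in these data. In SMCs 3 members lay wholly higher and 1 wholly lower with siKlf4, where 25.6% and 21.5% of tested genes did, and in PDGFR-β+ cells 2 of the 6 tested lay wholly higher and 2 wholly lower, where 33.9% and 19.8% did. The members' median log2 difference was 0.14 in SMCs and 0.04 in PDGFR-β+ cells, against 0.02 and 0.10 over all tested genes. In PDGFR-β+ cells the median over all genes moved to -0.0037 with median-ratio scaling, a shift of -0.10, and a changed sign is given where it arose.

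**Figure D1:**
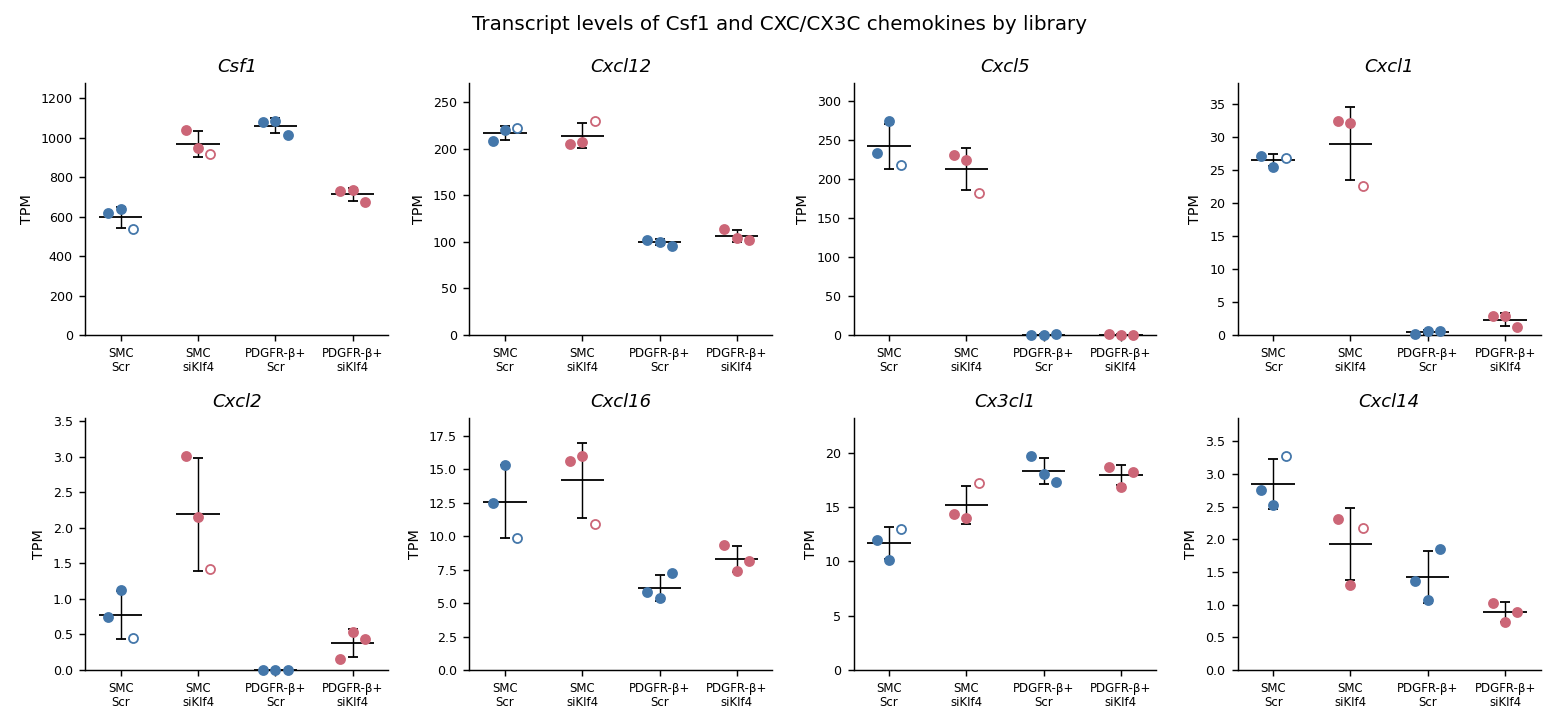
Transcript levels in TPM (vertical axes, each starting at 0) of the 8 members in Scr-treated (blue) and siKlf4-treated (red) SMCs and PDGFR-β+ cells, where each point is a library, open points are the SMC libraries with no replicate number, and bars are the mean and SD (n = 3). Csf1 sits higher in every siKlf4 SMC library than in any Scr SMC library, and lower in every siKlf4 PDGFR-β+ library than in any Scr one.

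Csf1 was the most abundant member in every library, and it moved in opposite directions in the cell types. In SMCs, Scr libraries held 537, 618 and 638 TPM and siKlf4 libraries 918, 947 and 1041 TPM. The groups were far from overlapping, with a 1.62-fold higher mean after silencing (598 ± 53.2 against 969 ± 64.7 TPM, SD, n = 3). The log2 difference was 0.70 (SE 0.088, 95% interval 0.49 to 0.90, adjusted p = 0.00269). In PDGFR-β+ cells, Scr libraries held 1016, 1082 and 1084 TPM and siKlf4 libraries 677, 732 and 734 TPM. The silenced cells kept 67.3% of the Scr level (1061 ± 38.5 against 714 ± 32.3 TPM), again without overlap, and the log2 difference was -0.57 (SE 0.066, 95% interval -0.73 to -0.42, adjusted p = 0.000591). The difference between the responses, tested as the interaction term over the 12 libraries, was 1.27 on the log2 scale (SE 0.11, adjusted p = 1.36e-05). Of 6 members with an interaction test, 1 was higher in SMCs (Csf1) and 1 lower (Cxcl1), where 14.5% of 13032 tested genes were higher and 18.5% lower. Cxcl1 entered this test only through its siKlf4 PDGFR-β+ libraries. A rise in SMCs with a fall in PDGFR-β+ cells, as for Csf1, was found for 306 of these genes, or 2.35%.

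The order of the cell types for Csf1 differed between treatments. Scr-treated SMCs held less Csf1 than Scr-treated PDGFR-β+ cells, with a log2 difference of -0.83 (SE 0.078, adjusted p = 4.01e-06), whereas each siKlf4 SMC library lay above each siKlf4 PDGFR-β+ library. Of the summed TPM of the 8 ligands, Csf1 made up 52.1 to 55.4% in Scr and 65.5 to 67.4% in siKlf4 SMCs, and 89.2 to 89.6% in Scr and 83.3 to 84.6% in siKlf4 PDGFR-β+ cells. The summed smooth muscle markers were at 3366 to 4123 TPM in siKlf4 SMCs, above their Scr range, and at 4649 to 4951 TPM in siKlf4 PDGFR-β+ cells, below theirs, and their part in the Csf1 result was not tested. Of the 7 of these markers that were tested, 6 rose in SMCs. In PDGFR-β+ cells 2 rose (Myh11 and Smtn) and 3 fell, and the sum there was carried mostly by Acta2 and Tagln, the contractile actin and an actin-binding protein, with log2 differences of -0.29 and -0.54. In a bulk culture, fewer cells of a type and less RNA per cell cannot be told apart.

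Csf1 lies on chromosome 3 of mm10 (GRCm38), minus strand, from 107741048 to 107760469. Its promoter is shown because Csf1 carried the opposing response, and because NF-kB and CACCC sequences, the kinds of site read by inflammatory signalling and by KLF proteins, can be looked for in it. The stretch covers the 250 bases before the start site (RefSeq, GRCm38.p6, chr3:107760470-107760719, minus strand), with letters in capitals that match on either strand an NF-kB pattern of GGG, 2 bases of any kind, TT, 1 base of any kind and CC.

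Csf1: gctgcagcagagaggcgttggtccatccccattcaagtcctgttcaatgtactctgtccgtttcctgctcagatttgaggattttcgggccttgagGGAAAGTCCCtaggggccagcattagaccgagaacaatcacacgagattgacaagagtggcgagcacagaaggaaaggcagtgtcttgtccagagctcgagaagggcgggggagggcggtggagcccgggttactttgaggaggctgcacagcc

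The Csf1 stretch held 1 match to the NF-kB pattern, beginning 154 bases before the start site, and 0 matches to CACCC on either strand. Among 32851 RefSeq promoters of 300 bases, 4.79% held the NF-kB pattern and 57.5% held CACCC. These matches describe letters, and no binding was measured here.

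Csf1r, the receptor of CSF1, was low in all libraries. In PDGFR-β+ cells it fell from 1.60, 2.23 and 3.0 TPM to 0.552, 0.675 and 1.10 TPM, with a log2 difference of -0.87 (SE 0.21, adjusted p = 0.0138), and the gene reached the expression minimum only through its Scr libraries. In SMCs it was between 0.533 and 0.938 TPM and was not tested. The summed macrophage markers, a list that holds Csf1r, were 35.7 to 37.2 TPM in Scr and 29.1 to 34.0 TPM in siKlf4 PDGFR-β+ cells, with Lyz2 falling from at least 17.3 TPM to at most 13.6 TPM and Cd14 rising, and the part of such cells in the Csf1r result was not tested. Il34, which encodes the other ligand of CSF1R, was not called in either cell type. Its means were 6.30 and 5.75 TPM in Scr and siKlf4 SMCs and 1.60 and 0.803 TPM in Scr and siKlf4 PDGFR-β+ cells. Csf2 and Csf3 encode the granulocyte-macrophage and the granulocyte colony-stimulating factor. Csf3 was not called in SMCs, at 2.28 and 3.24 TPM in Scr and siKlf4 libraries, and was not tested in PDGFR-β+ cells. Csf2 was under the minimum in both cell types and was not tested.

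The neutrophil chemoattractants Cxcl5, Cxcl1 and Cxcl2 lie in this order on the plus strand of chromosome 5. Cxcl5 spans 90759360 to 90761624, Cxcl1 spans 90891241 to 90893115 and Cxcl2 spans 90903871 to 90905938, so the start sites of Cxcl1 and Cxcl2 are 12630 bases apart and those of Cxcl5 and Cxcl1 are 131881 bases apart. The promoters of Cxcl1 and Cxcl2 are shown because these neighbours were the remaining members called with siKlf4. Cxcl1 was called in PDGFR-β+ cells and Cxcl2 in SMCs, and Cxcl2 reached the expression minimum only in SMCs. Capitals mark matches to the same NF-kB pattern and to CACCC on either strand, and the stretches are chr5:90890995-90891240 and chr5:90903649-90903870 on the plus strand of GRCm38.p6. They stop before the annotated transcripts, so that they hold 246 and 222 bases.

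Cxcl1: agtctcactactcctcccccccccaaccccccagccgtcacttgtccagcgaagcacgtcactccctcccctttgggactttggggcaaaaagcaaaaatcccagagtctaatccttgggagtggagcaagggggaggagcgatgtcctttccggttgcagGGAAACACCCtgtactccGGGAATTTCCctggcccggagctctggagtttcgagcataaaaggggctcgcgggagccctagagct

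Cxcl2: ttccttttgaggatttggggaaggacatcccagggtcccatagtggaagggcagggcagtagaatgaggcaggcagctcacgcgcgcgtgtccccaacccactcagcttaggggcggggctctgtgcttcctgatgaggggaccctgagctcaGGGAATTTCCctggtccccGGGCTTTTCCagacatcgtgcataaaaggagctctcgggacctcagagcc

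Each of these stretches held 2 NF-kB matches, which began 89 and 71 bases before the RefSeq start of Cxcl1 and 97 and 78 bases before that of Cxcl2. The letters GGGAATTTCC occur in both. The other match in Cxcl1, GGAAACACCC, contains its only CACCC, and the Cxcl2 stretch held 0 CACCC matches. Promoter entries were matched for 6 of the 8 members, without Cxcl5 and Cxcl16. Those of Cxcl12 and Cxcl14 held 2 CACCC matches each and 0 NF-kB matches, and that of Cx3cl1 held neither.

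Cxcl2 was scarce, and it rose with siKlf4 in SMCs. Scr libraries held 0.455, 0.749 and 1.13 TPM and siKlf4 libraries 1.42, 2.15 and 3.01 TPM. The lowest value of each treatment was that of the library with no replicate number, and the groups did not overlap. The mean was 2.81-fold higher (0.779 ± 0.339 against 2.19 ± 0.795 TPM), with a log2 difference of 0.83 (SE 0.24, 95% interval 0.27 to 1.39, adjusted p = 0.0397). The gene reached the expression minimum through its siKlf4 libraries. The call was lost with no filter on low values (adjusted p = 0.0835) and in 4 of the 6 fits that left out 1 library, namely without Scr replicate 2 (0.0968), without the Scr library that has no number (0.0966), without siKlf4 replicate 2 (0.119) or without siKlf4 replicate 3 (0.102). In PDGFR-β+ cells Cxcl2 was listed at 0 in the 3 Scr libraries and at 0.162, 0.435 and 0.535 TPM in the siKlf4 libraries, under the minimum for a test. With no filter on low values its log2 difference there was 0.45 (limma, adjusted p = 0.0305). The interaction term of Cxcl2 without that filter was 0.38 (adjusted p = 0.393), so no difference between the cell types was called. Of the 50-base stretches of Cxcl2 transcripts, 5.84% also occur in Cxcl3, whose group means were at most 0.0606 TPM, so reads of the pair could be exchanged at this low level.

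Cxcl1 rose in PDGFR-β+ cells, from very low values. Scr libraries held 0.133, 0.629 and 0.645 TPM and siKlf4 libraries 1.2, 2.88 and 2.88 TPM. Every siKlf4 library lay above every Scr library, with a log2 difference of 1.15 (SE 0.28, 95% interval 0.50 to 1.79, adjusted p = 0.0137), and the gene reached the expression minimum only through its siKlf4 libraries. Without siKlf4 replicate 2 the adjusted p was 0.0507. In SMCs the gene was far more abundant and its groups overlapped, with 25.5, 26.9 and 27.2 TPM in Scr and 22.6, 32.1 and 32.4 TPM in siKlf4 libraries. The log2 difference of 0.11 (SE 0.14, 95% interval -0.23 to 0.44, adjusted p = 0.595) was not called. It was 0.28 over the 4 numbered SMC libraries (adjusted p = 0.0403) and -0.24 between the SMC libraries with no number. The interaction term for Cxcl1 was -1.04 (SE 0.32, adjusted p = 0.0287). The adjusted p of this term was 0.0584 with no filter on low values, 0.102 over the numbered SMC libraries, and between 0.0518 and 0.0682 in 6 of the 12 fits without 1 library (Scr replicate 1, siKlf4 replicate 1 or siKlf4 replicate 2 of the PDGFR-β+ cells, or Scr replicate 2, the unnumbered Scr or the unnumbered siKlf4 library of the SMCs).

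Cxcl5 was an SMC transcript in these cultures. It held 218, 233 and 274 TPM in Scr and 183, 225 and 231 TPM in siKlf4 SMCs, with overlapping groups and a log2 difference of -0.18 (SE 0.12, 95% interval -0.47 to 0.10, adjusted p = 0.289). In PDGFR-β+ cells it was at most 0.813 TPM in any library and was not tested. CXCR2, the receptor that CXCL1, CXCL2 and CXCL5 share, is encoded by a gene listed at 0 in all 12 libraries, and Cxcr1 had group means of at most 0.0146 TPM. Of the 5 neutrophil markers, 3 were at 0 in all SMC libraries, while S100a8 ranged from 2.50 to 19.8 TPM in Scr and from 6.11 to 30.7 TPM in siKlf4 SMCs, and the part of such cells in the Cxcl2 result was not tested.

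**Figure D2:**
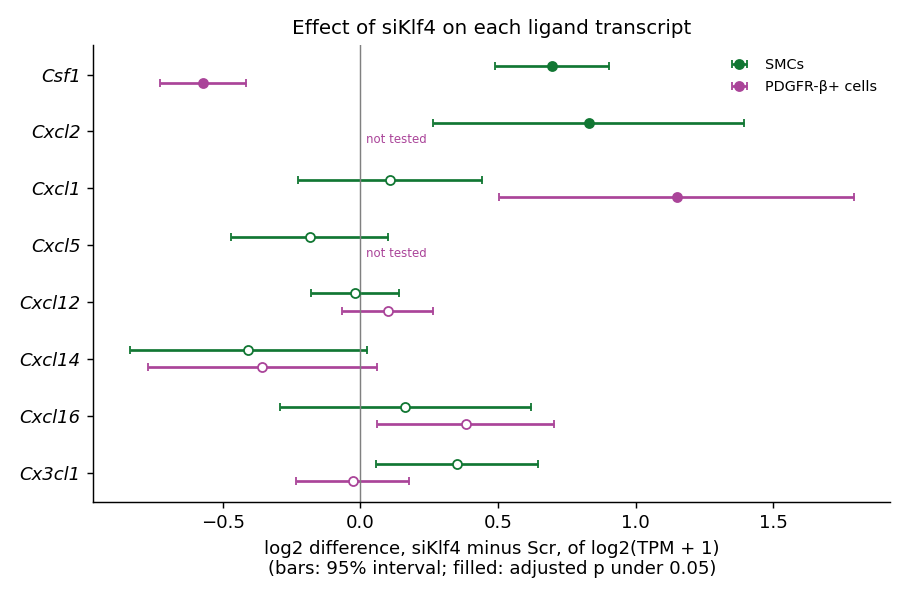
Log2 difference (horizontal axis, siKlf4 minus Scr on log2(TPM + 1)) of each member in SMCs (green) and PDGFR-β+ cells (purple), with 95% intervals as bars and filled points for an adjusted p under 0.05 (n = 3 libraries a group). Csf1 lies at 0.70 in SMCs and at -0.57 in PDGFR-β+ cells, and the intervals of Cxcl12 span 0 in both.

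Cxcl12, the homeostatic ligand of CXCR4 that anchors to heparan sulfate, lies on chromosome 6, plus strand, from 117168535 to 117181367. Its levels varied little with treatment. SMCs held 209, 220 and 222 TPM after Scr against 205, 208 and 229 TPM after siKlf4, and these groups overlapped. PDGFR-β+ cells held 95.9, 100.3 and 102 TPM after Scr against 102, 105 and 114 TPM after siKlf4, where 1 siKlf4 library lay within the Scr range. The log2 difference was -0.02 in SMCs (95% interval -0.18 to 0.14, adjusted p = 0.852) and 0.10 in PDGFR-β+ cells (95% interval -0.07 to 0.27, adjusted p = 0.300). The PDGFR-β+ value turned to -0.01 with median-ratio scaling.

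Ackr3, which encodes the scavenging receptor that removes CXCL12, fell in both cell types. SMCs held 40.4, 48.8 and 50.3 TPM after Scr against 23.5, 23.8 and 26.6 TPM after siKlf4, a log2 difference of -0.89 (SE 0.11, adjusted p = 0.00222). PDGFR-β+ cells held 24.2, 26.0 and 27.8 TPM after Scr against 3.44, 4.14 and 5.18 TPM after siKlf4, a log2 difference of -2.37 (SE 0.14, adjusted p = 2.6e-05). The fall was larger in PDGFR-β+ cells, with an interaction term of 1.49 (SE 0.18, adjusted p = 1.0e-04). Cxcr4 was at most 0.401 TPM in any library, so that Ackr3 was the CXCL12 receptor transcript with a measurable level. Of 9 receptors of the members, Ackr3 alone passed the minimum in SMCs, and Ackr3 and Csf1r in PDGFR-β+ cells, where 12.9% and 15.3% of all tested genes fell. Cxcr3 was listed at 0 throughout, and Cxcr6, Cx3cr1 and Ackr1 had group means of at most 0.473 TPM.

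Cxcl16 and Cx3cl1 encode the membrane-anchored chemokines, which act on CXCR6 and CX3CR1. Cxcl16 is on chromosome 11, minus strand, from 70453983 to 70459984, and shares 552 bases with Zmynd15 on the opposite strand, which held 0.159 to 2.43 TPM. PDGFR-β+ cells held 5.36, 5.83 and 7.23 TPM of Cxcl16 after Scr against 7.38, 8.12 and 9.37 TPM after siKlf4. The groups stood apart by a narrow margin, and the log2 difference of 0.38 (SE 0.14, 95% interval 0.06 to 0.70, adjusted p = 0.0605) missed the threshold. Without Scr replicate 3 the adjusted p was 0.0325. In SMCs the Cxcl16 libraries overlapped, at 9.87, 12.5 and 15.3 TPM after Scr against 10.9, 15.6 and 15.9 TPM after siKlf4, with a log2 difference of 0.16 (95% interval -0.29 to 0.62, adjusted p = 0.557). The interaction term for Cxcl16 was -0.22 (SE 0.25, adjusted p = 0.536) and was not called.

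Cx3cl1 lies on the plus strand of chromosome 8, from 94772009 to 94782427. SMCs held 10.1, 12.0 and 13.0 TPM after Scr against 14.0, 14.4 and 17.2 TPM after siKlf4, without overlap, and the log2 difference of 0.35 (SE 0.13, 95% interval 0.06 to 0.64, adjusted p = 0.0761) missed the threshold. With a term that separates numbered from unnumbered libraries the adjusted p was 0.0211, and with both cell types in 1 fit it was 0.0274. PDGFR-β+ cells held 17.3, 18.0 and 19.7 TPM after Scr against 16.9, 18.2 and 18.7 TPM after siKlf4, with a log2 difference of -0.03 (95% interval -0.23 to 0.18, adjusted p = 0.829). The interaction term of 0.38 (SE 0.15, adjusted p = 0.0763) did not pass, whereas it passed with median-ratio scaling (0.45, adjusted p = 0.0340) and with quantile normalization (0.49, adjusted p = 0.0217).

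Cxcl14, a chemokine of epithelial and stromal tissues whose receptor is less settled, lies on chromosome 13, minus strand, from 56288643 to 56296551. Its values were low. SMCs held 2.52, 2.75 and 3.27 TPM after Scr against 1.30, 2.17 and 2.32 TPM after siKlf4, and PDGFR-β+ cells held 1.07, 1.36 and 1.85 TPM after Scr against 0.729, 0.887 and 1.03 TPM after siKlf4. The siKlf4 libraries lay under the Scr libraries in both cell types. The log2 differences of -0.41 (SE 0.18, adjusted p = 0.139) and -0.36 (SE 0.18, adjusted p = 0.148) were not called. As given above, such an arrangement was found for 21.5% and 19.8% of tested genes.

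The members' processing and anchoring partners were read from a list of 9 genes. Of 9 tested in SMCs, 3 rose and 1 fell, beside 15.6% and 12.9% of all tested genes, and of 8 tested in PDGFR-β+ cells, 2 rose and 4 fell, beside 25.3% and 15.3%. Adam10, a sheddase of CXCL16 and CX3CL1, was at 121, 139 and 142 TPM in Scr and 51.8, 84.5 and 91.6 TPM in siKlf4 PDGFR-β+ cells, with a log2 difference of -0.85 (adjusted p = 0.013). Adam17, the inducible sheddase of CX3CL1, fell there from 35.1, 35.7 and 36.7 TPM to 24.0, 24.9 and 27.8 TPM, with a log2 difference of -0.47 (adjusted p = 0.00326, or 0.0977 with both cell types in 1 fit). In SMCs neither was called, with log2 differences of 0.07 and 0.02, and the unnumbered Scr library held 73.3 TPM of Adam17 against 35.4 and 36.9 TPM in the numbered ones. The interaction term was called for Adam10 (0.92, adjusted p = 0.0207) and not for Adam17 (0.50, adjusted p = 0.233). Sdc1, a heparan sulfate proteoglycan, fell in both cell types, by 0.81 on the log2 scale in SMCs and by 0.71 in PDGFR-β+ cells. The heparan sulfate enzymes Hs2st1 and Ndst1 rose in both, with log2 differences of 0.37 and 0.39 in SMCs and 0.29 and 0.42 in PDGFR-β+ cells. Among proteases that trim chemokines, Mmp2 had a log2 difference of 0.19 in SMCs (adjusted p = 0.0488), a call that held under 5 of 10 alternatives and in 1 of 6 fits without a library, that without the unnumbered Scr library, and Mmp14 fell in PDGFR-β+ cells by 0.35 on the log2 scale.

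Of 9 other CXC ligands, 3 were tested in each cell type. Cxcl9, Cxcl10 and Cxcl13 rose in PDGFR-β+ cells and Cxcl10 in SMCs. Cxcl9 and Cxcl13 in PDGFR-β+ cells and Cxcl10 in SMCs reached the expression minimum only through their siKlf4 libraries, so these counts carry no weight against the share of all tested genes that rose (25.3% and 15.6%). Cxcl10, an interferon-induced ligand of CXCR3, rose in both, from 0.530, 0.799 and 1.63 TPM to 3.43, 5.19 and 6.01 TPM in SMCs (log2 difference 1.58, adjusted p = 0.0059) and from 2.28, 3.14 and 4.76 TPM to 128, 143 and 144 TPM in PDGFR-β+ cells (log2 difference 5.02, adjusted p = 6.5e-06). With siKlf4, Cxcl10 in PDGFR-β+ cells therefore passed the level of Cxcl12. Cxcl9, a ligand of the same receptor, was at most 0.112 TPM in Scr and 19.1, 20.7 and 21.2 TPM in siKlf4 PDGFR-β+ cells, and at most 0.631 TPM in SMCs. Cxcl13, a B cell attractant, rose in PDGFR-β+ cells from 0.419, 0.480 and 0.591 TPM to 2.44, 3.29 and 3.36 TPM (log2 difference 1.42, adjusted p = 4.9e-04). Cxcl13 in SMCs was highest in the unnumbered library of each treatment, at 19.0 TPM with Scr and 31.2 TPM with siKlf4, and its log2 difference of 0.70 was not called (adjusted p = 0.184).

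**Figure D3:**
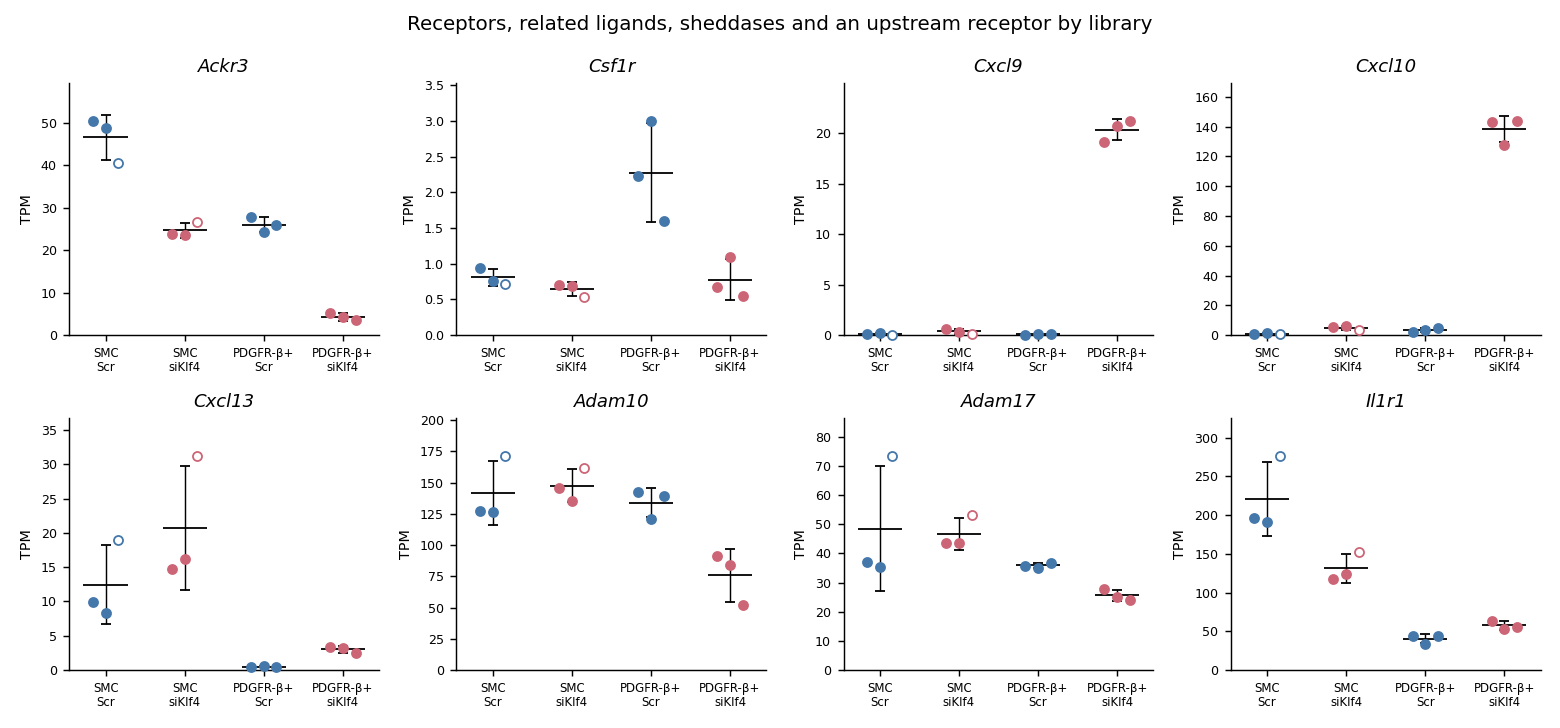
Transcript levels in TPM (vertical axes, each starting at 0) of receptors, related CXC ligands, sheddases and Il1r1, with points, colours, open symbols and bars (mean and SD, n = 3) as in the plot of the members. Ackr3 is lower in the siKlf4 libraries of both cell types, and Cxcl10 reaches 128 to 144 TPM in siKlf4 PDGFR-β+ cells.

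Receptors and an adaptor through which inflammatory signals induce chemokine genes were read from 8 genes. Of these, 0 rose (0 also at an unadjusted p under 0.05) and 2 fell in SMCs, and 3 rose and 2 fell in PDGFR-β+ cells, beside 15.6% and 12.9% of all tested genes in SMCs and 25.3% and 15.3% in PDGFR-β+ cells. Il1r1, the signalling receptor of interleukin 1, fell in SMCs from 191, 196 and 276 TPM to 117, 124 and 153 TPM (log2 difference -0.73, adjusted p = 0.017, and up to 0.0602 without siKlf4 replicate 2 or 3) and rose in PDGFR-β+ cells from 34.0, 43.6 and 44.1 TPM to 53.5, 55.5 and 63.7 TPM (log2 difference 0.50, adjusted p = 0.014). Its interaction term was -1.23 (adjusted p = 0.00143). Il17ra, the interleukin 17 receptor, fell in SMCs from a mean of 40.9 to 19.1 TPM. In PDGFR-β+ cells Tlr3, a sensor of double-stranded RNA, rose from a mean of 14.5 to 40.1 TPM and the adaptor Myd88 from 31.0 to 54.3 TPM, while the tumour necrosis factor receptors Tnfrsf1a and Tnfrsf1b fell by 0.60 and 0.32 on the log2 scale. The call of Tnfrsf1a held in 2 of the 6 fits without a library and was lost without Scr replicate 1 or 2 or siKlf4 replicate 2 or 3 (adjusted p up to 0.0756), and that of Tnfrsf1b held in 3 of 6 and was lost without Scr replicate 1 or siKlf4 replicate 2 or 3 (up to 0.0552).

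Proteins that set the stability of chemokine transcripts were read from 6 genes, of which 1 rose and 1 fell in SMCs and 2 rose and 1 fell in PDGFR-β+ cells, beside the same shares of all tested genes. Zfp36l1, which encodes a destabilizer of AU-rich transcripts, was at a mean of 125 TPM in Scr and 95.4 TPM in siKlf4 SMCs, and it rose in PDGFR-β+ cells from 23.0 to 47.8 TPM. The SMC call held under 6 of 10 alternatives and in 2 of 6 fits without a library, and was lost without Scr replicate 2 or 3, the unnumbered Scr library or siKlf4 replicate 3 (adjusted p up to 0.0762). Elavl1, which encodes the stabilizing protein HuR, rose in SMCs from 29.3, 33.4 and 34.6 TPM to 54.4, 59.2 and 70.7 TPM (log2 difference 0.90, adjusted p = 0.00286). The related destabilizers Zfp36 and Zfp36l2 were called in PDGFR-β+ cells, with log2 differences of 0.38 and -0.58.

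Without silencing, the cell types carried different ligand profiles. Of 7 members tested between Scr-treated SMCs and Scr-treated PDGFR-β+ cells, 5 were higher and 2 lower in SMCs, where 26.7% of 13874 tested genes were higher and 26.0% lower. Cell type, source, culture and table cannot be told apart in this comparison. Cxcl5 averaged 0.569 TPM over the PDGFR-β+ libraries and reached the expression minimum only through the SMC libraries. Cxcl1 averaged under 1 TPM in the Scr-treated PDGFR-β+ libraries. The count of higher members therefore carries no weight against the share of all tested genes. Cxcl5 differed most, with a mean of 242 ± 28.9 against 0.495 ± 0.384 TPM and a log2 difference of 7.37 (SE 0.18, adjusted p = 7.6e-11). Cxcl1 followed at 26.5 ± 0.875 against 0.469 ± 0.291 TPM, with a log2 difference of 4.25 (SE 0.23, adjusted p = 4.6e-08). Cxcl12 was 2.18-fold higher in SMCs (log2 difference 1.12, adjusted p = 1.0e-07), and Cxcl16 and Cxcl14 were also higher there, with log2 differences of 0.91 and 0.67. Cx3cl1 was lower in SMCs, at 11.7 ± 1.46 against 18.3 ± 1.23 TPM (log2 difference -0.61, adjusted p = 5.7e-04), as was Csf1. These 7 calls were made in each fit that left out a library.

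The order of levels within Scr-treated SMCs ran from Csf1 through Cxcl5, Cxcl12, Cxcl1, Cxcl16, Cx3cl1 and Cxcl14 to Cxcl2. Cxcl5 overlapped Cxcl12, and Cxcl16 overlapped Cx3cl1, whereas the other neighbours did not overlap. In Scr-treated PDGFR-β+ cells the order was Csf1, Cxcl12, Cx3cl1, Cxcl16, Cxcl14, Cxcl5, Cxcl1 and Cxcl2, and here Cxcl5 overlapped Cxcl1. The cell types thus shared Csf1 at the top and Cxcl2 at the bottom, while Cxcl5 and Cxcl1 stood higher in the order of the SMCs and Cx3cl1 higher in that of the PDGFR-β+ cells.

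**Figure D4:**
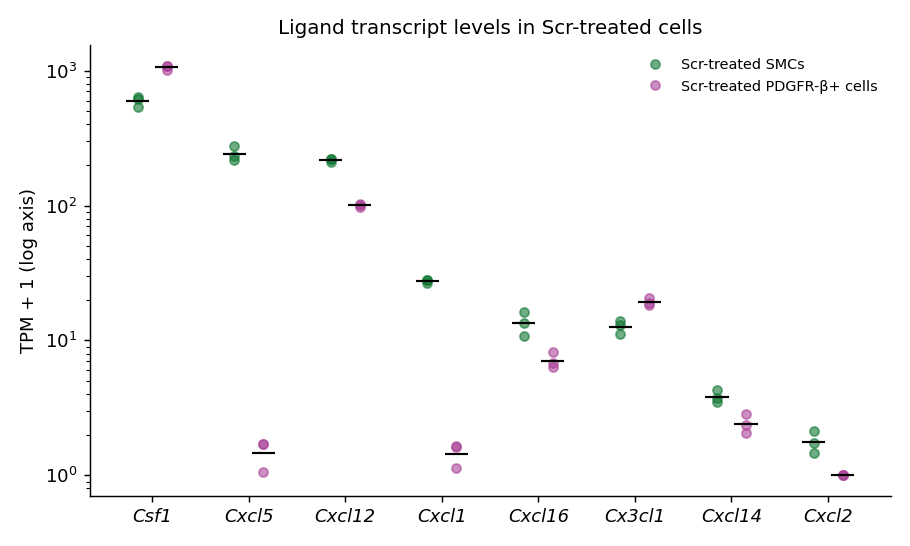
Levels of the 8 members in Scr-treated SMCs (green) and Scr-treated PDGFR-β+ cells (purple), as TPM + 1 on a log axis, where each point is a library and bars are means of log2(TPM + 1) (n = 3). Cxcl5 and Cxcl1 sit at 242 and 26.5 TPM on average in SMCs and under 1 TPM in PDGFR-β+ cells.

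Genes whose pattern was most like that of a member were ranked by Pearson correlation over the 12 libraries, after the mean of each cell type was removed. The ranking covered 11689 candidates, or 11690 for Cxcl5, and such values describe libraries that share treatment groups and a fixed total. Csf1 was most like Coq10b (r = 0.990), Axl (r = 0.989) and Inhba (r = 0.988). Axl encodes a receptor tyrosine kinase, Inhba the activin A subunit, and Coq10b a coenzyme Q binding protein. Cxcl14 was most like Foxn3 (r = 0.978), Cxcl1 most like Safb (r = 0.950), Cx3cl1 most like Cstf2 (r = 0.936), Cxcl16 most like Dusp28 (r = 0.930), Cxcl12 most like Pfkfb1 (r = 0.924) and Cxcl5 most like Slc8b1 (r = 0.897). Cxcl2 was under 1 TPM on average over the 12 libraries and was not ranked.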

How the data were processed

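The authors made strand-specific mRNA libraries, aligned trimmed reads to mm10 using HISAT2 and a GENCODE annotation (release not given in the sources used here), and took abundances from StringTie and ballgown. They deposited TPM values, 1 table per cell type with replicates kept apart, in which each library sums to 1000000 and between 20590 and 21780 genes are above 0. The unit holds no sequencing depth, so counting error is unknown, and a rise of abundant genes lowers the others. The study tested counts with DESeq2, and those counts were not used here.

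Members were matched by exact symbol. The members, the gene lists and the rule for named genes (every member, receptors, and list genes past the threshold) were chosen with earlier results of these data known. Values were analysed as log2(TPM + 1), where the libraries of a comparison averaged at least 1 TPM (in each cell type for the interaction), with limma 3.58.1 in R 4.3.3 (lmFit, eBayes with a mean-variance trend, two-sided, Benjamini-Hochberg adjustment over all tested genes, threshold 0.05). The cell types were fitted separately, and the interaction and the comparison of Scr groups used 1 fit over 12 libraries. The pseudocount of 1 TPM shrinks the differences of scarce genes. With 3 libraries against 3, an exact permutation test cannot go below p = 0.1. The procedure was tested on simulated data.

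The alternatives tried were a pseudocount of 0.1, other filters, median-ratio scaling, quantile normalization, no trend, joint or separate fits, a replicate block, a minimum fold, the numbered SMC libraries alone or a term for their naming, and leaving out each library. Positions come from GENCODE release M21 of mouse. Promoters come from RefSeq GRCm38.p6, and motifs were searched by letters.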

Additional observations from a re-analysis of the deposited data

Results flagged for a closer look

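The response to siKlf4 differed between the cell types by the interaction test for 2 members and 12 other genes of the pathway lists, where 14.5% of tested genes were higher in SMCs and 18.5% lower, and the values given are SMC minus PDGFR-β+ log2 differences. Of 6 members tested 1 was higher and 1 lower, of 2 other CXC ligands 0 and 1, and of 1 receptor 1 and 0. Of 8 processing and anchoring genes 2 were higher and 0 lower, and of 8 upstream receptor genes 1 and 4. Of 6 transcript stability genes 2 were higher and 1 lower, and 1 other myeloid growth factor was tested and not called. Csf1 had 1.27, Cxcl1 had -1.04, and the CXCL12 scavenger Ackr3 had 1.49. The Cxcl1 call was lost in 6 of the 12 fits without a library, and Cxcl1 reached the expression minimum in PDGFR-β+ cells only through its siKlf4 libraries. Among the other ligands Cxcl10 had -3.45, and it reached the minimum in SMCs only through its siKlf4 libraries. Among the proteases Adam10 had 0.92 and Mmp14 had 0.51. Among upstream receptors and their adaptor Il1r1 had -1.23, Il17ra had -0.92, Tlr3 had -1.38, Myd88 had -0.83 and Tnfrsf1b had 0.48. Among regulators of transcript stability Zfp36l1 had -1.47, Zfp36l2 had 0.73 and Elavl1 had 0.81. Klf4 itself kept 21.9% of its Scr level in SMCs and 9.16% in PDGFR-β+ cells. Its interaction term was 1.19 (adjusted p = 0.00069), so the depth of silencing differed, and its part in these differences was not tested. No cause of these differences was tested, and cell type cannot be told apart from source and culture.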

How the results depend on the processing

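The opposing response of Csf1 held its direction and its side of the adjusted p threshold under every alternative run, left-out libraries included, with log2 differences from 0.62 to 0.75 in SMCs and from -0.68 to -0.52 in PDGFR-β+ cells, but both are under 1 and so were lost where a log2 difference of at least 1 was required. The count of members that rose in SMCs went from 2 to 1 in the absence of a filter on low values, at a minimum mean of 5 TPM and with the replicate block, to 3 over the numbered SMC libraries (Cxcl1 gained) and with the naming term or both cell types in 1 fit (Cx3cl1 gained), to 0 with that requirement, and to between 1 and 2 without a library. In PDGFR-β+ cells the count of risen members went from 1 to 2 with no filter, to 0 at 5 TPM and to between 0 and 2 without a library, and that of fallen members from 1 to 0 with the minimum log2 difference of 1. For the interaction, members higher in SMCs went from 1 to 2 with median-ratio scaling or quantile normalization and lay between 1 and 2 without a library, and members lower went from 1 to 0 with no filter, at 5 TPM, with the block or over the numbered SMC libraries, and lay between 0 and 1 without a library. The minimum log2 difference left 3 of 5 higher and 0 of 2 lower members between the Scr groups. At 5 TPM, Cxcl1 in PDGFR-β+ cells, Cxcl2 in SMCs and Cxcl14 in both were no longer tested, which accounts for those losses. For the other changes the cause was not tested. Signs turned only for uncalled values near 0. Cxcl12 in PDGFR-β+ cells was -0.010 with median-ratio scaling. Without a library, Cxcl12 in SMCs ranged from -0.070 to 0.010, Cx3cl1 in PDGFR-β+ cells from -0.067 to 0.022 and the Cxcl14 interaction from -0.17 to 0.11, and the last was 0.046 with a pseudocount of 0.1 and 0.11 with quantile normalization. Same-numbered PDGFR-β+ libraries did not deviate together (r = 0.073, -0.016 and 0.0043), and the SMC table has only 2 numbered pairs (r = 0.107), so the numbers were treated as names. With the block, 1500 genes rose and 1353 fell in the numbered SMC libraries, against 2140 and 1825 without it over the same libraries. Over all 6 SMC libraries 2136 rose and 1774 fell, or 2998 and 2494 with the naming term. In PDGFR-β+ cells 3486 rose and 2155 fell with the block, against 3461 and 2098 without it. The correlations of same-numbered libraries leave out the unnumbered SMC libraries. Those lay together on the second principal component, at -19.4 with Scr and -20.5 with siKlf4, against 4.87 to 17.3 for the numbered ones. Members under about 1 TPM (Cxcl2, and Cxcl1 and Cxcl5 in PDGFR-β+ cells) are limited by a depth that TPM does not record.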
